A study of Mus musculus with 74 samples.

Results

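Peaks that lay in mouse sequence present in 10 to 99 copies per genome were described here for 67 KRAB zinc finger proteins (KRAB-ZFPs). A peak belonged to this class when its 200 bp window, centred on the summit in the mm9 build, held 24-mers, read every 8 bp, whose median number of exact occurrences on either strand of the genome was at least 10 and under 100. The rule selected 3555 of 53011 peaks (6.71%), and it used the genome sequence alone, so that enrichment, tag counts and gene positions were free to differ. The class lies between peaks in sequence with 1 copy (30915 peaks) and those with at least 100 and under 1000 copies (5923 peaks). Of 164 peaks just inside the lower bound, with 10 to 10.5 copies, the median fold enrichment was 22.7, and of 165 peaks just outside it, with 9 to 9.5 copies, 26.5. At the upper bound, 13 peaks with 99 to 99.5 copies had a median of 15.4 and 9 peaks with 100 to 100.5 copies a median of 29.2.

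The study mapped binding sites by chromatin immunoprecipitation and sequencing (ChIP-seq) of tagged, overexpressed KRAB-ZFPs in 74 samples, of which 6 were controls. The 67 KRAB-ZFPs with peaks used here fell into 4 setups. In F9 cells, a mouse embryonic carcinoma line, 18 carried an N-terminal 3XFLAG tag and were precipitated with a FLAG antibody (1517 class members), 30 carried a 3XHA tag and were precipitated with an HA antibody (805 members), and 10 carried a C-terminal 3XHA tag, with Bowtie2 mapping and a Gm14296 control (624 members). In B6 embryonic stem (ES) cells, 9 carried a C-terminal 3XHA tag, were precipitated with another HA antibody and were called against inputs (609 members). The stably expressing cells were pooled resistant clones, each KRAB-ZFP had 1 library, and the protein was expressed from a vector, so its level need not match that of the endogenous gene. Cell line, antibody, control, mapper and peak threshold changed together between setups and cannot be told apart.

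KRAB-ZFPs are vertebrate transcription factors that touch DNA through an array of zinc fingers and bring in the corepressor KAP1 (TRIM28) through their KRAB domain. KAP1 in turn recruits the histone methyltransferase SETDB1, which places the repressive mark H3K9me3. Many of their targets lie in transposable elements, and sequence with a moderate number of near-identical copies is what young or small families of such elements, segmental duplications and arrays of related genes leave in a genome.

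The 7 windows printed here come from the 7 largest sequence families among the members, numbered by size. Each was itself under a peak of the KRAB-ZFP named. Members were joined into a family when they shared at least 25% of their 24-mers. Joining ran link by link, so 2 members of 1 family need not share any 24-mer. Each window is in mm9, 5′ to 3′ on the strand given, and lay outside annotated exons. Capitals mark the 20-base stretch in which the identity of genomic copies under a peak of that KRAB-ZFP most exceeded that of copies without one.
Zfp808, family 1, chr1:12590853-12591052, minus strand: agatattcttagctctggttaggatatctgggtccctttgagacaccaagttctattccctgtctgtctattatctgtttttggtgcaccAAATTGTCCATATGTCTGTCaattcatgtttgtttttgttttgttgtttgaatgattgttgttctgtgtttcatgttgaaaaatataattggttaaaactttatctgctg
Gm13157, family 2, chr4:152521228-152521427, plus strand: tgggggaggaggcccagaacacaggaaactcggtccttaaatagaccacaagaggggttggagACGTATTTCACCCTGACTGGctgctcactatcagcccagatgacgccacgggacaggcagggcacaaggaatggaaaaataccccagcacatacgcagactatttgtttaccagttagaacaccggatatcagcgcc
Gm13051, family 3, chr11:27213760-27213959, minus strand: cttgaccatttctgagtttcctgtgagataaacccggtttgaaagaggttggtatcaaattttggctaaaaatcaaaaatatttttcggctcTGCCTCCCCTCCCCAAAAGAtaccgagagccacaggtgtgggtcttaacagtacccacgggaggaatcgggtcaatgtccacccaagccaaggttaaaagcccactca
Gm14419, family 4, chr16:79546630-79546829, plus strand: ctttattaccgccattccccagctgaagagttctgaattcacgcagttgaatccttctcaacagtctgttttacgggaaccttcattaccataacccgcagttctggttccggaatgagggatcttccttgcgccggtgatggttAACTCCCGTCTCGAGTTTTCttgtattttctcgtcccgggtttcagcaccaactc
Gm14412, family 5, chr6:131064973-131065172, minus strand: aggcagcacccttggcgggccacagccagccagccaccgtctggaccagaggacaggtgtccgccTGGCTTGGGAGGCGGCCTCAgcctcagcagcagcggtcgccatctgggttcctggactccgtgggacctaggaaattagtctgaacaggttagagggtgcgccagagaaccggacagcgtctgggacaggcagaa
Zfp961, family 6, chr12:69659294-69659493, minus strand: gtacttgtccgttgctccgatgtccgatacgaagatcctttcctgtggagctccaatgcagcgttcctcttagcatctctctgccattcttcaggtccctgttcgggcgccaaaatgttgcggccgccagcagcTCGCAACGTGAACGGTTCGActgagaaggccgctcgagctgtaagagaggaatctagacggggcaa
Gm14406, family 7, chr17:41548235-41548434, minus strand: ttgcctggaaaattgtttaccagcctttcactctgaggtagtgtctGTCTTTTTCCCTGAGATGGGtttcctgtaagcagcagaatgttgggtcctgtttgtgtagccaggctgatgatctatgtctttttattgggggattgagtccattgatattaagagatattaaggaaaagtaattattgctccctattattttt

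The class was spread unevenly over the KRAB-ZFPs. Members were found for 64 of 67 KRAB-ZFPs and none for Zfp456, Zfp874a and Zfp882. At least 10 members were found for 42, and 11 KRAB-ZFPs with at least 100 held 2439 members (68.6%). The share of a KRAB-ZFP's peaks that fell in the class ran from 0 to 58.5% with a median of 4.43%. A grid of 127919 windows, 1 every 20 kb of the genome, held 4.73% in the class, so the peaks held 1.42 times the grid's share. For sequence of at least 100 and under 1000 copies the corresponding ratio was 3.45, and for sequence with 1 copy 0.722.

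Gm13157, encoded in the KRAB-ZFP gene cluster on chromosome 4, had the highest share, with 259 of its 443 peaks (58.5%, 95% Wilson interval 53.8 to 63.0). Zfp808, encoded on chromosome 13, followed with 273 of 544 (50.2%, 46.0 to 54.4), and Gm13051, also encoded on chromosome 4, with 271 of 550 (49.3%, 45.1 to 53.4). The intervals of Zfp808 and Gm13051 overlapped nearly in full, and they cover counting error only. Gm13139 followed with 51 of 169 peaks (30.2%, 23.8 to 37.5) and Zfp931 with 74 of 346 (21.4%, 17.4 to 26.01). For these 5 KRAB-ZFPs, sequence with 10 to 99 copies held at least 20% of the peaks.

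The largest numbers of members belonged to KRAB-ZFPs with much larger peak sets. Gm14406 had 362 members among 5685 peaks (6.37%), of which 4545 lay in sequence with 1000 copies or more. Gm14419 had 303 among 3906 peaks (7.76%), of which 1456 lay in sequence with at least 100 and under 1000 copies. For both, the members were the smaller fringe of a set of peaks in still more repeated sequence. For Gm13225 and Gm13152 the remainder lay elsewhere: Gm13225 had 246 members among 3570 peaks (6.89%), with 2636 in single-copy sequence, and Gm13152 had 192 among 5189 (3.70%), with 4479 in single-copy sequence. The other KRAB-ZFPs with at least 100 members were Zfp961 with 163 (11.2%), Gm14412 with 161 (5.78%), Gm13251 with 106 (3.21%) and Zfp617 with 103 (13.5%).

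**Figure D1:**
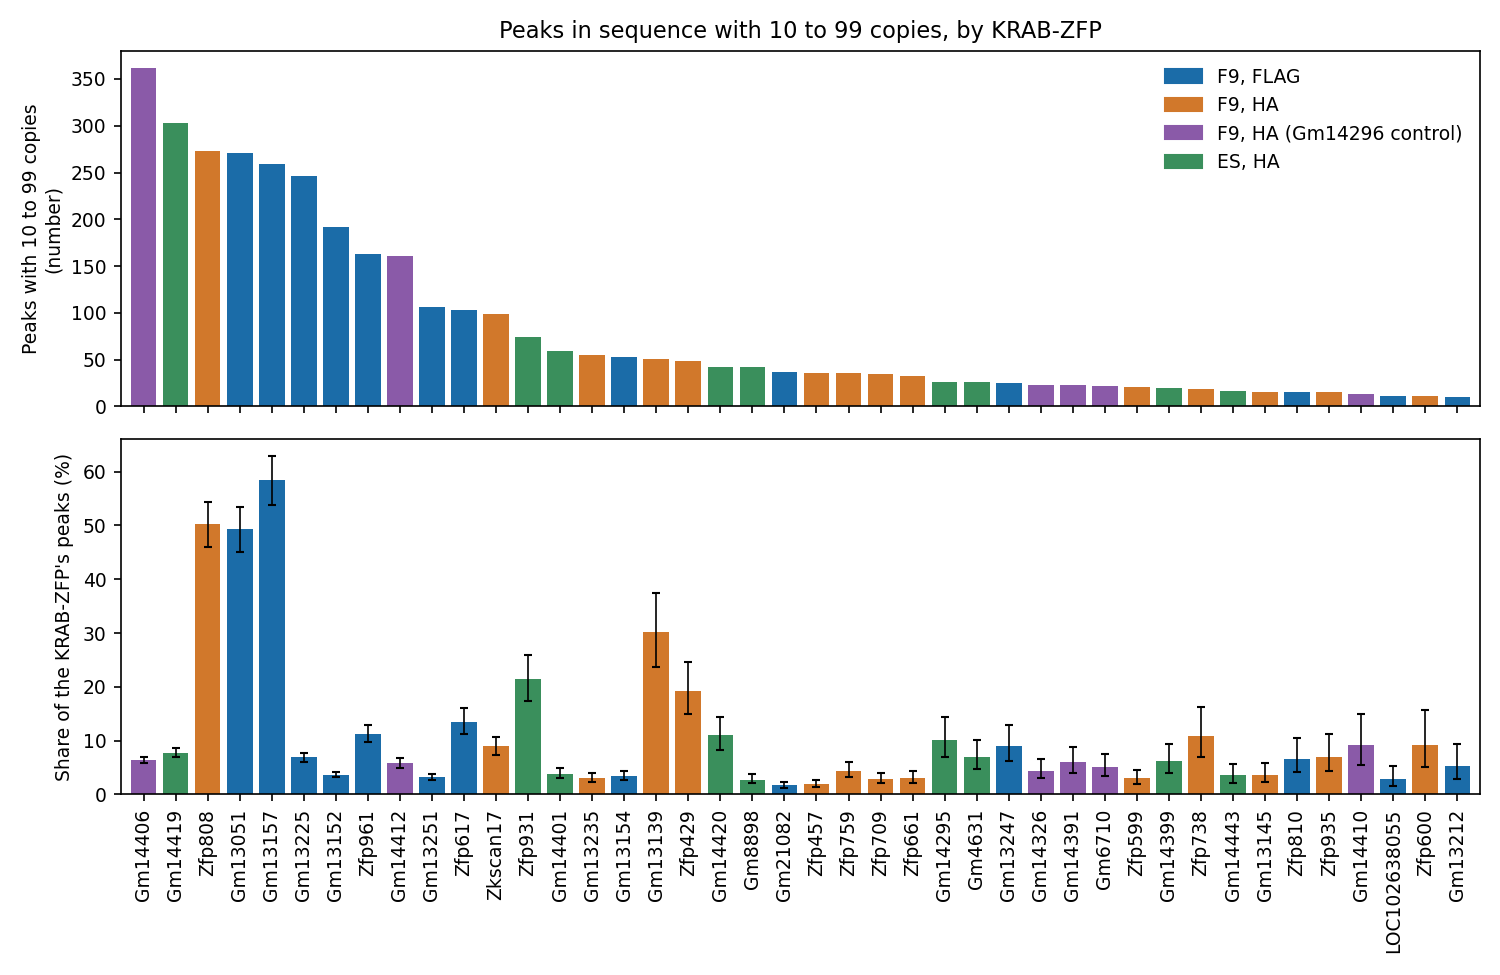
Number of peaks in sequence with 10 to 99 copies (top) and their share of each KRAB-ZFP's peaks in percent (bottom, with 95% Wilson intervals) for the 42 KRAB-ZFPs with at least 10 such peaks, coloured by setup. The number falls from 362 for Gm14406, while the share is highest at 58.5% for Gm13157, 50.2% for Zfp808 and 49.3% for Gm13051.

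No difference in share between setups, or between the chromosomes that encode the KRAB-ZFPs, passed the test. It averaged 11.6% ± 16.0 (SD, n = 18 KRAB-ZFPs) in F9 FLAG, 6.55% ± 10.3 (n = 30) in F9 HA, 5.23% ± 2.05 (n = 10) in the F9 HA set with the Gm14296 control and 8.18% ± 5.72 (n = 9) in ES cells. F9 FLAG exceeded F9 HA by 5.02 percentage points (two-sided permutation test over KRAB-ZFPs, 100000 resamples, p = 0.207, Benjamini-Hochberg adjusted over 5 comparisons p = 0.680). All F9 KRAB-ZFPs averaged 7.88% against 8.18% in ES cells (permutation test, adjusted p = 0.965).

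KRAB-ZFPs encoded on chromosome 4 averaged 11.3% ± 16.5 (n = 19), those on chromosome 2 averaged 6.64% ± 4.34 (n = 19) and those on chromosome 13 averaged 7.21% ± 12.5 (n = 16). None of the 3 pairwise differences passed the same permutation test (adjusted p from 0.680 to 0.965). Setup and chromosome were largely the same split: all 16 KRAB-ZFPs of chromosome 13 were in the F9 HA setup, in which 7 of chromosome 4 averaged 7.28% ± 10.5 and 1 of chromosome 2 had 3.10%. In F9 FLAG, 12 of chromosome 4 averaged 13.7% ± 19.2. A mean over so few KRAB-ZFPs was moved by single proteins, since 1 library of each chromosome 4 and 13 set exceeded 50%.

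The enrichment of members was not, on average, apart from that of single-copy peaks of the same library beyond the spread between KRAB-ZFPs, and a few KRAB-ZFPs lay far from that average. The fold enrichment over control of all members ran from 2.20 to 222.0 with a median of 26.4, the tag count from 7 to 6255 with a median of 51, and the called width had a median of 508 bp. Because thresholds differed between libraries, members were compared with the single-copy peaks of the same KRAB-ZFP, and the 42 KRAB-ZFPs with at least 10 of each were the units. The median log2 fold enrichment of members was on average 0.10 ± 0.35 above that of single-copy peaks, higher for 26 and lower for 14 KRAB-ZFPs (two-sided sign-flip permutation test, 100000 resamples, adjusted over 7 measures p = 0.167). The mean difference was 0.13 in F9 FLAG, 0.18 in F9 HA, -0.14 in the F9 HA set with the Gm14296 control and 0.09 in ES cells. Tag counts (log2 difference 0.05, adjusted p = 0.663) and called widths (log2 difference 0.01, adjusted p = 0.729) did not pass the permutation test either. The measured differences were thus close to the spread between KRAB-ZFPs or smaller.

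The largest positive differences belonged to KRAB-ZFPs of the named families. Gm13157 members ranged from 22.9 to 222.0-fold, and their typical fold (the median log2 value put back on the linear scale) was 78.8 against 29.6 for its 96 single-copy peaks (log2 difference 1.42). Gm14419 members, in ES cells, ranged from 3.79 to 74.8 and were typically at 23.7 against 12.1 (0.97). Zfp808 members ranged from 20.2 to 105.2 and were typically at 61.8 against 33.2 (0.90), and Gm13051 members ranged from 21.1 to 136.1 and were typically at 63.2 against 46.2 (0.45). For these 4 proteins the members were more enriched than the single-copy peaks. In sequence of at least 100 and under 1000 copies, 17 Gm13051 peaks had a median log2 fold of 4.94. This was below its members (5.98) and its single-copy peaks (5.53). Gm14419 had 4.73 in that class against 4.57 for its members, while Gm13157 had 0 such peaks and Zfp808 had 2. Gm14410 members were below its single-copy peaks, with 13 members at 17.9 against 20 single-copy peaks at 31.4 (-0.81). Zfp617, whose members ranged from 20.1 to 92.6, was at 25.3 against 30.9 (-0.28).

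Among the remaining named KRAB-ZFPs, the median fold of the members was 41.5 for Zfp961 (20.1 to 117.9), 33.0 for Gm13152 (20.0 to 105.4) and 32.2 for Gm14412 (20.5 to 138.7). It was 27.2 for Gm14406 (20.2 to 111.6), 34.1 for Gm13139 (21.1 to 100.5), 23.04 for Gm13251 (20.3 to 49.4), 11.6 for Gm13225 (10.0 to 39.5) and 11.1 for Zfp931 (3.78 to 27.3). The lowest value of most F9 sets sat at the threshold of 20 or 10 that the authors applied to those libraries. Gm13225 members were the widest of the named sets, with a median called width of 2377 bp against 237 bp for Gm13251.

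Members lay away from genes compared with single-copy peaks. Within the 42 KRAB-ZFPs, 2.81% of members were within 1 kb of an annotated transcript start against 13.2% of single-copy peaks, a difference of -10.4 ± 12.4 percentage points that was negative for 35 of 42 (sign-flip permutation test, p = 1e-05, the smallest 100000 resamples can give, adjusted p = 3.5e-05). In introns the values were 28.6% and 41.4%, a difference of -12.8 ± 13.1 points, again negative for 35 of 42 (adjusted p = 3.5e-05). The difference at transcript starts was -13.2 points in F9 FLAG, -5.82 in F9 HA, -14.9 in the F9 HA set with the Gm14296 control and -10.5 in ES cells, and that in introns was -9.64, -9.32, -20.3 and -18.0. All 9 ES libraries were negative on both measures. GC content (46.8% against 46.6%, adjusted p = 0.729) and CpG dinucleotides per window (2.95 against 3.51, adjusted p = 0.226) did not pass the test.

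Windows of the same class taken at regular steps along the genome were placed in nearly the same way. Of all members, 74.2% were intergenic, 25.01% in introns and 2.90% within 1 kb of a transcript start, against 71.7%, 26.8% and 2.98% of 6046 grid windows with 10 to 99 copies. Single-copy peaks were intergenic in 47.5% and within 1 kb of a start in 17.5%. Measured against peaks with at least 100 and under 1000 copies in 30 KRAB-ZFPs, members were on average more often near transcript starts. Within 1 kb of a start lay 2.51% against 0.987% (difference 1.53 points, sign-flip permutation test, adjusted p = 0.048). The median difference was 0, with 13 KRAB-ZFPs higher and 9 lower. In introns the difference from that class was 1.61 points (same test, adjusted p = 0.584). CpG dinucleotides per window were fewer in members than in that class (3.12 against 4.55, adjusted p = 0.0029). None of the 7 differences between members and single-copy peaks passed the permutation test between F9 and ES libraries (adjusted p from 0.297 to 0.980). The X chromosome held 10.9% of members, 16.97% of grid windows of the class and 2.18% of single-copy peaks.

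**Figure D2:**
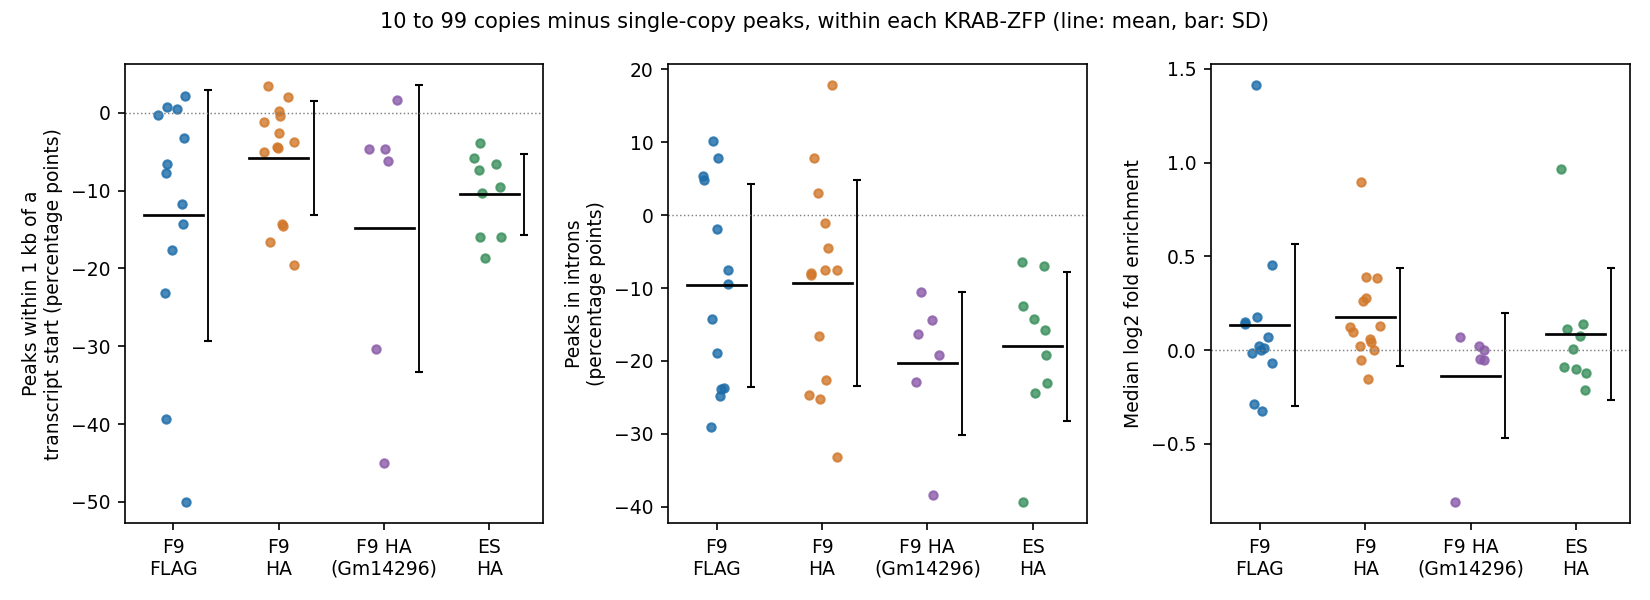
Members minus single-copy peaks within each KRAB-ZFP (points), by setup, for the percentage within 1 kb of a transcript start, the percentage in introns and the median log2 fold enrichment; horizontal lines are means and bars 1 SD. Points at transcript starts and in introns lie mostly below 0 in every setup, with 35 of 42 negative on each, while fold enrichment scatters around 0, with Gm13157 at 1.42 and Gm14410 at -0.81.

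For several KRAB-ZFPs the members fell largely into 1 family of related sequences at the 25% limit. The 3555 members formed 1413 groups, of which 1200 were single windows and 31 had at least 10 members. These 31 families held 1789 members (50.3%). The sizes depend on the limit: the largest family held 304 members at 25% sharing, 100 (2.81%) at 50% and 1035 (29.1%) at 10%. The most common 24-mer of families 1, 2 and 3 was held by 55.9%, 59.8% and 59.7% of their members. The 3 KRAB-ZFPs with the highest shares each had 1 dominant family: 98.5% of the members of Gm13157 were in family 2 (255 of 259), 87.5% of those of Gm13051 in family 3 (237 of 271) and 85.7% of those of Zfp808 in family 1 (234 of 273). Gm13139 was also concentrated, with 45 of its 51 members (88.2%) in family 1. At the other end, the 246 members of Gm13225 fell into 222 groups, of which the largest held 7, and the 106 members of Gm13251 fell into 99. The largest family of Gm14406 held 19.9% of its members, that of Gm13152 48 of 192 and that of Zfp617 25.2%.

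Most of the 10 largest families were led by 1 KRAB-ZFP. Family 2 held 255 Gm13157 peaks and 1 of Zfp935, and family 3 held 237 of Gm13051 and 1 of Zkscan17. Families 6, 7 and 8 were of Zfp961 (94), Gm14406 (72) and Gm13152 (48) alone, as was family 10 of Gm14419 (38). Family 5 held 94 Gm14412 peaks and 2 of Gm14419. Family 1, with 304 members the largest, was shared by 10 KRAB-ZFPs, above all Zfp808 and Gm13139, and family 4, with 224, by 7, with 198 from Gm14419. Family 9 was a tandem repeat, since 97.9% of the copies of its shared 24-mer lay within 1 kb of another copy, and its 41 members came from 5 KRAB-ZFPs, led by Gm21082 (14), Gm14412 (13) and Zfp810 (8).

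Many genomic copies of these sequences were under a peak. The 24-mer held by the most members of family 2 occurred 234 times in the genome, and 193 of these copies (82.5%) lay within 100 bp of a Gm13157 summit. The corresponding values were 219 of 319 copies (68.7%) for Zfp808 in family 1, 188 of 394 (47.7%) for Gm13051 in family 3, 838 of 1779 (47.1%) for Gm14419 in family 4 and 735 of 1172 (62.7%) for Gm14412 in family 5. Zfp961 lay at 94 of 152 copies (61.8%) in family 6, Gm14406 at 4026 of 8468 (47.5%) in family 7 and Gm13152 at 208 of 329 (63.2%) in family 8. The core of family 7 was thus far more frequent than the windows of its members, which had a median of 65 copies. Taken over whole libraries, the median share of copies of a member's central 24-mer with a summit of the same KRAB-ZFP within 100 bp was 13.8% over 42 KRAB-ZFPs, from 1.69 to 94.1%. The authors' mappers placed a read that fitted several copies equally well at 1 of them by a pseudo-random draw, so a copy under a peak need not have been the source of its reads.

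Copies more like the printed window were bound more often in most families, and Gm13051 departed from this order. Copies were found by aligning each printed window to the genome, which favours copies like it, and the window was itself under a peak. For Zfp808, 20 of 21 copies with at least 97.5% identity were under a peak (95.2%), 178 of 184 at 90 to 95% (96.7%), 111 of 141 at 85 to 90% (78.7%) and 58 of 479 below 85% (12.1%). For Gm13157 the values fell from 19 of 19 to 88.5%, 55.3% and 27.6% over the same bins. For Gm14412 708 of 1355 copies (52.3%) were under a peak at 90 to 95% and 243 of 5100 (4.76%) at 85 to 90%, and for Gm14406 74.98% of 2390 copies at 95 to 97.5% and 6.40% of 9940 at 85 to 90%. Gm14419 held its level, with 82.5% of 888 copies below 85% identity and 95.7% of 23 copies in the highest bin. Zfp961 lay at 57 of 58 copies (98.3%) in the highest bin, 25 of 32 (78.1%), 27 of 52 (51.9%) and 2 of 24 (8.33%) in the next 3, and 10 of 47 (21.3%) below 85%. Gm13051 lay at 38 of 38 copies in the highest bin, 61 of 97 (62.9%) at 95 to 97.5%, 55 of 180 (30.6%) at 90 to 95%, 99 of 113 (87.6%) at 85 to 90% and 240 of 303 (79.2%) below 85%.

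For Gm13051, copies at 90 to 95% identity differed in the share under a peak by the state of a short sequence. GAGGCAGA was the 8-mer with the largest excess in the central 100 bp of Gm13051's single-copy peaks over those of the other KRAB-ZFPs, counted on both strands. In the printed window it starts at base 91 on the opposite strand, where it reads TCTGCCTC and runs into the capitals. Among copies of 90 to 95% identity, 47 of 66 with the 8-mer intact (71.2%, 95% Wilson interval 59.4 to 80.7) and 8 of 114 with it changed (7.02%, 3.60 to 13.2) were under a Gm13051 peak. Over all identities the values were 451 of 547 (82.4%) and 42 of 184 (22.8%). Within this identity bin the intervals of the intact and changed copies did not overlap. These intervals cover counting error only and treat related copies of the family as independent, so they are no test of the 8-mer. The 8-mer was also chosen in part on peaks that lay on the same copies. Whether intact and changed copies differed elsewhere in the window was not tested.

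The same division was made for the other families with such an 8-mer in the window. For Zfp808 and TGCACCAA, 348 of 636 intact copies (54.7%) and 70 of 241 changed copies (29.05%) were under a peak, but at 90 to 95% identity the values were 96.9% and 96.0%. For Gm13157 and CCAGATGA they were 269 of 329 (81.8%) and 20 of 45 (44.4%). For Zfp961 and GGGCGCCA, all 36 intact copies were under a peak and 85 of 177 changed ones (48.02%). Over all identities a smaller share of changed than of intact copies was under a peak in each of the 4 families, and the mix of identities differed between intact and changed copies. This 8-mer division was added after the identity curves had been seen. The single-copy peaks that chose the 8-mer were themselves partly diverged copies of the same family: 64.1% of them for Gm13051, 52.5% for Zfp808, 7.29% for Gm13157 and 0.758% for Zfp961 lay on an aligned copy. Only copies aligned to the printed window count here, and for Zfp961 these held 51 of its members (31.3%).

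Within the printed windows, the capital stretch was where the identity of copies under a peak most exceeded that of the other copies. For Zfp808, the 418 copies under a peak had 92.1% identity in the stretch and the 459 others 66.9%, an excess of 25.2 points against a median of 4.36 over all positions. For Gm13157 the excess was 12.5 points against 0.864, for Gm14419 18.8 against -0.02, for Gm14412 16.2 against 0.821, for Gm14406 12.4 against 3.51 and for Zfp961 14.8 against 3.26. For Gm13051 it was 7.73 against -1.04, and bases 54 to 73 of that window differed by more in the opposite direction (-10.6 points), so that copies under a peak were there the less like it. Each stretch was chosen as the greatest excess in its window and is a description. The stretch overlapped the 8-mer of Zfp808, which starts at bases 81 and 85 on opposite strands, and that of Gm13051, but not that of Gm13157 or Zfp961, which start at bases 99 and 105.

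Over all KRAB-ZFPs, the 8-mer chosen on single-copy peaks was also found in members. Members did not enter that choice, but the choosing peaks were not fully separate from the members' families. Of the single-copy peaks, 64.1% for Gm13051 and 52.5% for Zfp808 lay on an aligned copy of the family. For Gm13157 and Zfp961 it was 7.29% and 0.758%. These values count matches to 1 printed window each, and that of Zfp961 matched only 51 of its 163 members (31.3%). A low value thus cannot show that the choosing peaks were separate from the members' families. For most KRAB-ZFPs this overlap was not measured. For those with a large overlap, finding the 8-mer in members is partly given by the shared repeat. The 40 KRAB-ZFPs with at least 10 members and 50 single-copy peaks had it in the central 100 bp of 18.3 percentage points more of their own members than of the members of the others (SD 25.1, median 5.60), higher for 27 and lower for 12 (two-sided sign-flip permutation test, p = 1e-05, the smallest 100000 resamples can give). The excess was far from even among the proteins. GAGGCAGA was in 215 of 271 Gm13051 members (79.3%) against 4.84% of the others, CCAGATGA in 191 of 259 Gm13157 members (73.7%) against 0.182%, and CCATGACC in 73 of 103 Zfp617 members (70.9%) against 1.51%. TGCACCAA was in 193 of 273 Zfp808 members (70.7%) against 0.823%, GGGCGCCA in 95 of 163 Zfp961 members (58.3%) against 0.0295%, and GGCCGGAA in 27 of 74 Zfp931 members (36.5%) against 0.0287%.

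For other proteins the single-copy 8-mer was rare in members. GCCGCCGC, in 15.3% of the single-copy peaks of Gm13152, was in 0 of its 192 members, which allows a share of up to 1.96% (Wilson). CAAGAAAC, in 50.4% of the single-copy peaks of Gm14406, was in 42 of 362 members (11.6%), and ACTGTGGG, in 12.2% of those of Gm14419, was in 20 of 303 (6.60%). Gm13225's 8-mer was a run of A, in 96 of 246 members (39.0%) and 54.9% of its single-copy peaks. An 8-mer absent from the central 100 bp says nothing about longer or gapped motifs.

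**Figure D3:**
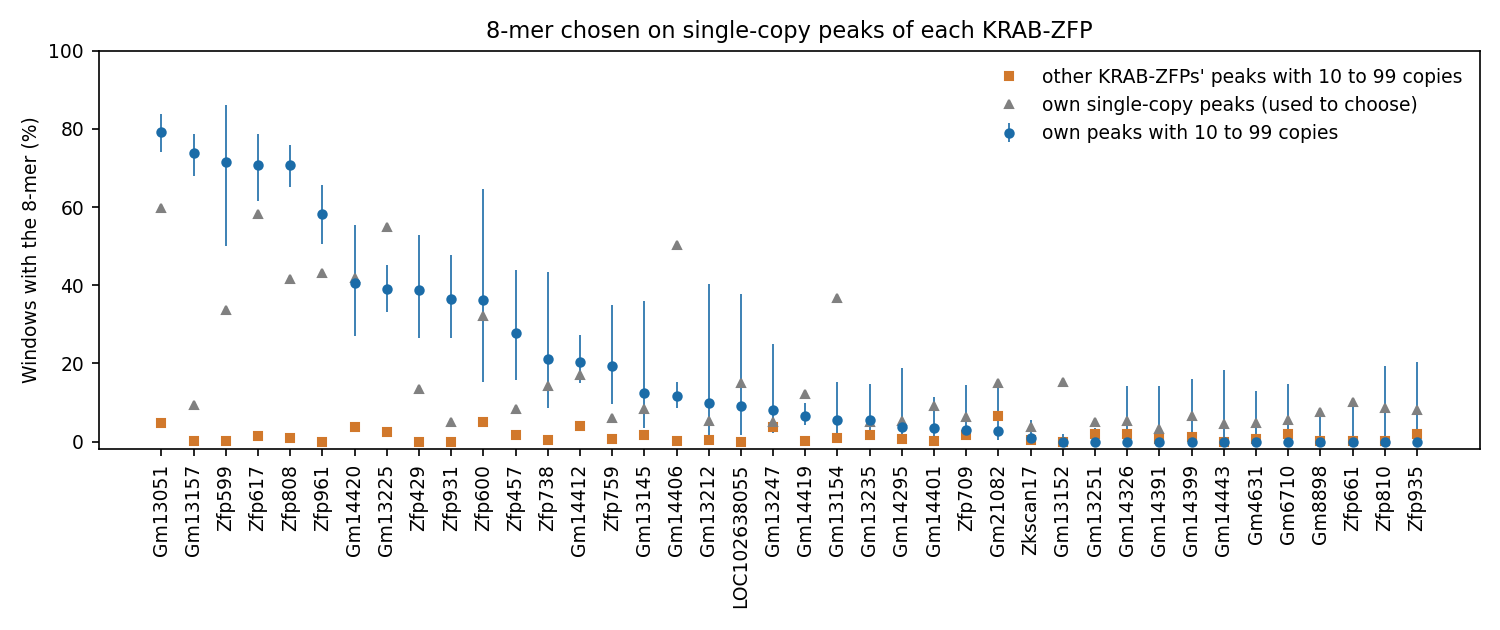
Percentage of windows with the 8-mer chosen on a KRAB-ZFP's single-copy peaks, in its own members (circles, 95% Wilson intervals), in the members of all others (squares) and in the single-copy peaks used to choose it (triangles), for 40 KRAB-ZFPs. Own members reach 79.3% for Gm13051 and 73.7% for Gm13157 with the others below 7%, and 0 for Gm13152.

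In several families the summits of a KRAB-ZFP sat in a narrow range along the copies. Distances are from the middle of the family's shared 24-mer, in the direction of the printed strand. In family 7, 4026 pairs of Gm14406 summit and copy had a median of 6 bp (interquartile range 0 to 13), and 97.6% were within 50 bp. Gm13157 summits in family 2 lay at -23 bp (-37 to -3, 206 pairs), Gm13051 in family 3 at -65 bp (-77 to -48, 200 pairs), Gm14412 in family 5 at 2 bp (-15 to 24, 962 pairs) and Zfp961 in family 6 at 53 bp (27 to 65, 107 pairs). The shared 24-mer was chosen from 200 bp windows centred on summits, so summits near it were in part given by that choice. In family 9, the tandem repeat, the range for Gm21082 ran from -77 to 66 bp.

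Zfp808 and Gm13139 shared family 1 and had their summits in different places along it. Zfp808 summits lay at -53 bp (-61 to -41, 232 pairs) and Gm13139 summits at 88 bp (57 to 102, 59 pairs). Of 51 Gm13139 member loci 16 (31.4%) were also Zfp808 loci, which is 5.86% of the 273 of Zfp808. In 20 pairs of summits on the same copy, Gm13139 lay on the same side in all 20, by a median of 121.5 bp (80.5 to 146.0). The locus printed next shows both. It is intergenic, 7172 bp from the start of Gm12658, and Zfp808 (68.2-fold, 431 tags) and Gm13139 (97.9-fold, 212 tags) had summits 134 bp apart, at bases 83 and 217. The first capitals, from base 47, are the Zfp808 8-mer on the opposite strand, and the second, bases 194 to 230, match a 37-base reporter oligo that the study designed for Gm13139 at all but 3 bases. The pair was chosen after its values were seen.
Zfp808 and Gm13139, chr4:95948051-95948350, plus strand: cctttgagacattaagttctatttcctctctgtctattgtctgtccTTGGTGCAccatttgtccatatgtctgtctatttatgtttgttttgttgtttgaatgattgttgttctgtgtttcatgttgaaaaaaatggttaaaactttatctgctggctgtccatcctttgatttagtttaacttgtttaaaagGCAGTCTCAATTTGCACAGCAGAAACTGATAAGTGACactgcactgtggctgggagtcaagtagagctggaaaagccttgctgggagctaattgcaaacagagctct
Family 4 had a similar division, with Gm14419 at 46 bp (23 to 95, 1107 pairs) and Gm4631 at -75 bp (-124 to -22, 227 pairs), both in broader distributions.

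**Figure D4:**
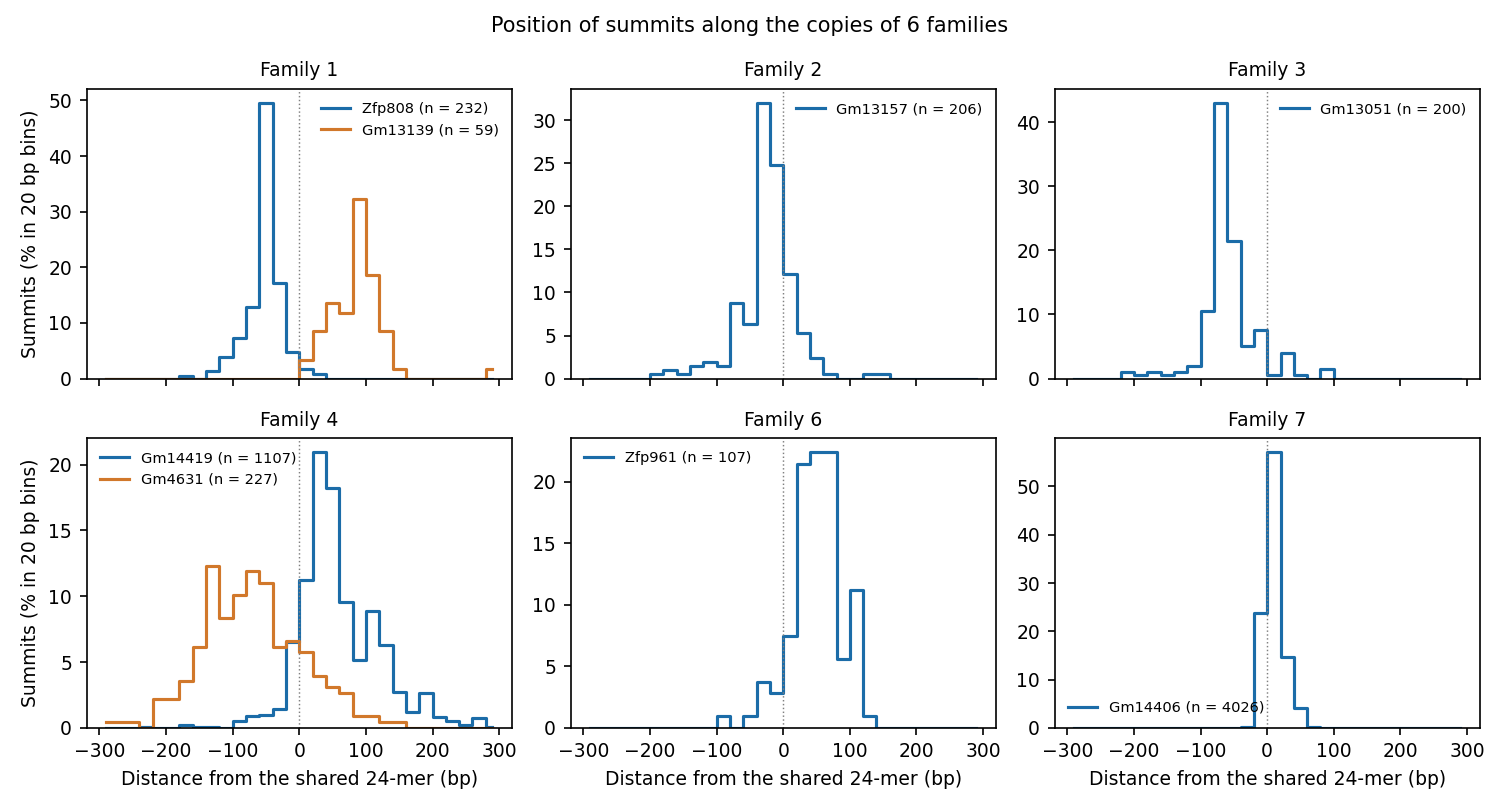
Summits (percentage in 20 bp bins) by distance in bp from the shared 24-mer of 6 families, for the leading KRAB-ZFP and, in families 1 and 4, a second one. Zfp808 peaks at -53 bp and Gm13139 at 88 bp on family 1, and Gm14406 is within 50 bp of the 24-mer in 97.6% of 4026 pairs.

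Some of the oligos that the study designed as reporter targets of single KRAB-ZFPs were frequent in the members of those KRAB-ZFPs, and others were not matched. The oligos were designed with such binding data at hand and most are named for a repeat, so the counts are a description and no independent evidence. Of 20 oligos, 18 were for a KRAB-ZFP with members. At no more than 15% mismatches, 8 of them were matched in at least 5 own members, 3 in 1 to 4 and 7 in none. The 7 were those for Zfp661 (0 of 33 members), Zfp599 (0 of 21), Zfp810 (0 of 16), Zfp534 and Gm30910 (0 of 6 each), Zfp46 (0 of 4) and AW146154 (0 of 1). Gm13157's was in 204 of 259 members (78.8%), Gm13051's in 167 of 271 (61.6%), Zfp617's in 90 of 103 (87.4%), Gm13139's in 34 of 51 (66.7%), Gm13152's in 117 of 192 (60.9%) and Zfp961's in 62 of 163 (38.0%). For LOC102638055 it was 7 of 11 (63.6%) and for Gm21082 9 of 37 (24.3%). At this limit each of the 8 was matched in at most 6 members of other KRAB-ZFPs, but at no more than 20% mismatches the oligo of Gm21082 was in 90 members of others against 9 of its own, and that of Gm13139 in 11 of others. The 6 with the most own members are shown in the orientation in which they were designed, by name and repeat.
Gm13157 IAPLTR4: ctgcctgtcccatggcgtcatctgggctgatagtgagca
Gm13051 MMETn: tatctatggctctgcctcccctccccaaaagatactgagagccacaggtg
Zfp617 ORR1A2: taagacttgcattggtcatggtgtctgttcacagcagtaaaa
Gm13139 RMER16-int: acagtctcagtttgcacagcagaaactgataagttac
Gm13152 RLTR13B1: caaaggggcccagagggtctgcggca
Zfp961 PBS-Lys1,2: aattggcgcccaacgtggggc
Of the members of Zfp961, 82 overlapped listed ends of the RLTRETN_Mm long terminal repeat, 77 of them in family 6, and no other KRAB-ZFP had such a member. No member overlapped the listed RLTR4_Mm ends.

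Most members were dispersed over the genome, and a minority lay in local or tandem arrays. By the copies of the central 24-mer, 2302 members (64.8%) were dispersed over a median of 19 chromosomes, 146 (4.11%) were local, with at least 90% of copies within 5 Mb, 136 (3.83%) were tandem, and 971 (27.3%) had a central 24-mer with fewer than 10 copies although the window's median was higher. Zfp961 and Gm13051 had no local members, and Gm13152 had 20 (10.4%). The local members formed 20 clusters, of which 4 held at least 10 members. The division by layout was added after the families had been seen.

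The largest cluster, from 3281071 to 8321445 on chromosome 14, held 45 members of 20 KRAB-ZFPs, led by Gm13152 (13). The next held 27 members between 120155007 and 122611292 on the X chromosome, 21 of them of Zkscan17, a protein with a SCAN and a KRAB domain. A cluster of 25 members, 13 of Gm14406, lay between 174943055 and 177021174 on chromosome 2, where the annotation places 16 of the KRAB-ZFP genes studied here, Gm14406 among them. A cluster of 13 members, 11 of Zfp808, lay between 60054775 and 61406338 on chromosome 4 among the genes for the major urinary proteins (Mup), pheromone carriers of mouse urine. In all, 29 local members (19.9%) lay in clusters with studied KRAB-ZFP genes.

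The shared 24-mers of some families occurred on 1 chromosome only, among them family 19 in the chromosome 2 cluster and family 23 in the Mup cluster. Those of families 20, 26 and 30 did so too, with a lower share of copies near a summit. There, 15 of 40 copies (37.5%) lay within 100 bp of a Gm13152 summit in family 20. The values were 5 of 44 (11.4%) for Gm13145 in family 26 and 10 of 15 (66.7%) for Gm13152 in family 30. This holds for the 24-mer, not for the whole bound windows. The shared 24-mer of family 19 occurred 16 times in the genome, all on chromosome 2, and all 16 copies had a Gm14406 summit within 100 bp. That of family 23 occurred 13 times, all on chromosome 4, and all 13 had a Zfp808 summit within 100 bp. All 14 members of family 23 lay on aligned but diverged copies of family 1 (median identity 84.4%), as 10 of 16 members of family 18 did (74.1%). All 15 members of family 21 (83.1%) and all 10 of family 31 (87.5%) lay on copies of family 7, and all 25 of family 15 on copies of family 3 (84.1%). Each of these 5 families was led by the protein that also led the larger family (Zfp808, Gm14406 or Gm13051), although family 18 also held 2 members of Gm14401 and 1 of Gm14420. One window each of families 19 and 23 is printed, with the shared 24-mer in capitals. Both families were chosen after their values were seen.
Gm14406, family 19, chr2:176292501-176292700, plus strand: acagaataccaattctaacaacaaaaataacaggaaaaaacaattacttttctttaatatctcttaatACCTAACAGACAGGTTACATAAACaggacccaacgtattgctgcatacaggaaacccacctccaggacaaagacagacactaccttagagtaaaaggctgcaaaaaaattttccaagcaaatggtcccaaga
Zfp808, family 23, chr4:60708470-60708669, minus strand: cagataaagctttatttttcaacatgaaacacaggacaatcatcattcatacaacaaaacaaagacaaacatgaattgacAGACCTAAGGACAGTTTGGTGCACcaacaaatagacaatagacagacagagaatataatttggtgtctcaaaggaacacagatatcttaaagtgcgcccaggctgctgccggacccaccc

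Members of different KRAB-ZFPs met at a small share of loci. Joined at an overlap of at least 25%, the 3555 members made 3382 loci, of which 123 (3.64%) had at least 2 KRAB-ZFPs and 24 at least 3. Joined in the same way, 7.69% of 27905 loci of single-copy peaks and 6.31% of 48767 loci of all peaks had at least 2. The sets differ in size, joins within a copy class miss partner peaks of another class, and the difference was not tested. The locus with the most lay at chr19:41707699-41707979, in an intron of Slit1, a secreted guidance cue for axons, with 9 KRAB-ZFPs at folds of 22.4 to 49.4. Next came chr6:116192096-116192418 in an intron of D6Wsu116e with 8 (12.1 to 53.0), chr2:113136109-113136326 in an intron of Tmco5b with 7 (20.0 to 42.0) and chr14:116583424-116583645 in an intron of Gpc5, a cell surface heparan sulfate proteoglycan, with 7 (11.4 to 28.7). The locus at chr15:80814337-80814581 in an intron of Sgsm3 had 4, all at 38.8 to 90.1, and belonged to the tandem family 9. Of pairs of KRAB-ZFPs, Gm13139 and Zfp808 shared the most loci (16), followed by Gm13247 and Zfp808, with 10 (of 25 loci of Gm13247).

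Genes with the most members in their body were mostly very long or in arrays. Gm20388, annotated over 4435 kb of chromosome 8, held 7 merged loci, Cntn5, which encodes a neuronal contactin, 6 in 1244 kb and the noncoding Gm17683 5 in 528.9 kb. In Cntn5 the 6 loci were of 6 different KRAB-ZFPs, Gm13139, Gm14419, Zfp808, Gm13051, Zfp617 and Gm13154. Flg2, which encodes a filaggrin-like protein of the epidermis, held 4 loci in 20.6 kb, all of Gm14419 in ES cells. 5730522E02Rik held 4 in 608.0 kb, and Gm16430, on the X chromosome, held 4 in 198.9 kb, of Gm13157 and Zfp808. Gm2956 and Gm3164, both in the cluster on chromosome 14, held 4 each.

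Few members were near a transcript start, and those with the highest scores were beside noncoding genes or pseudogenes. Of 3555 members, 103 lay within 1 kb of a start. The member with the highest score was a Zfp808 peak of family 1 (73.0-fold, 430 tags) 353 bp from a copy annotated as RNaseP_nuc, the RNA of ribonuclease P. It was followed by a Zfp661 peak 283 bp from 5031425F14Rik (191.8-fold, 686 tags), in tandem sequence, and a Zfp808 peak of family 23 613 bp from the pseudogene Gm14310 in the Mup array (62.9-fold, 392 tags). A Zfp961 peak lay 344 bp from a U6 copy, a small nuclear RNA of the spliceosome (70.3-fold), and a Gm13157 peak of family 2, the window printed above, 276 bp from Gm13173 (144.5-fold). Gm13051 peaks lay 735 bp from Gm10478 (89.6-fold), 725 bp from Gm15914 (113.4-fold) and 483 bp from AC124426.1 (95.6-fold), the last in family 15. None of these 8 was annotated as protein-coding.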

How the data were processed

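ChIP-seq of 67 tagged KRAB-ZFPs in F9 EC or B6 ES cells was analysed from 1 deposited peak table. Per the labels and the study's methods, the authors mapped reads to mm9 with Bowtie or Bowtie2 and called peaks with MACS 1.4.2, and a read with several equally good places was put at 1 of them pseudo-randomly. In F9 cells they kept peaks past p under 1e-10 or 1e-05 and an enrichment over 20 or 10. The F9 FLAG and F9 HA sets were called against both input and a control ChIP. For the 10 KRAB-ZFPs of the F9 HA set mapped with Bowtie2, the labels name the Gm14296 control alone. In ES cells they kept peaks with p under 1e-05 without an enrichment threshold. deepTools is also named in the submitters' processing notes. The deposited table gives each peak's tag count, its score (-10 times log10 of the p-value), its fold enrichment as a ratio over control and a false discovery rate in percent, and a 200 bp window around the summit. The depth of the libraries is not given in the sources used here. Of 53255 deposited peaks, 244 under 1 name could not be matched to a sample and were left out, and the library labelled Zfp94 had no peaks here. Of 4 KRAB-ZFPs the median false discovery rate was 100%.

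Occurrences of each 24-mer, every 8 bp, were counted on both strands of the NCBIM37 (mm9) genome, unplaced sequence included. Transcript starts, introns and gene names came from the annotation of that build. Members were joined into families by shared 24-mers. Copies were found by blastn (BLAST+ 2.17.0) from a printed window, with a matched span of at least 150 bases. Shares were compared over KRAB-ZFPs by permutation, and members with single-copy peaks of the same KRAB-ZFP by sign flips (100000 resamples, two-sided, Benjamini-Hochberg over 5 and 7 comparisons), in Python 3.11.15 with NumPy 2.4.6 and SciPy 1.17.1. Scripts were tested on simulated data. Each KRAB-ZFP had 1 library, so p-values measure the spread between KRAB-ZFPs. Wilson intervals cover counting error only, and reads without molecular identifiers are not independent molecules.

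Named KRAB-ZFPs were those with at least 100 members, or with at least 20% of their peaks and at least 10 members in the class. Also named were the 10 largest families, the 5 loci with the most KRAB-ZFPs, 8 genes by member loci, 8 by score near a start and the oligos in at least 5 own members. Any other name was picked with its values in view. The members and lists were chosen with earlier results of these data known. Alternatives were other k-mer lengths and steps, stricter thresholds, other minimums and comparison classes, leaving out the leading KRAB-ZFP, other sharing, overlap, distance and mismatch limits, and, added after seeing the data, leaving out the 4 KRAB-ZFPs with a median false discovery rate of 100%.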

Additional observations from a re-analysis of the deposited data

Results flagged for a closer look

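In groups of 4 to 10 KRAB-ZFPs, 3 of 16 groups of values had 1 KRAB-ZFP far from the rest by Dixon's criterion, which chance meets in about 1 in 20 groups. In ES cells, Zfp931 had 21.39% of its peaks in the class, while the mean of the 9 ES libraries was 8.18%. Also in ES cells, Gm14419 members exceeded its single-copy peaks by 0.967 in log2 fold enrichment. In the F9 HA set with the Gm14296 control, Gm14410 members were below its single-copy peaks (-0.811 in log2, 13 members and 20 single-copy peaks).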

How the results depend on the processing

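Of 109 alternatives over 18 results, 90 were rated the same, 3 newly passed the threshold and 16 turned the direction. For tested results, the same means that direction and side of the threshold were kept. For untested counts and percentages it means only that the value stayed within a set limit. The number of members, which went from 3555 to 2538 with strict thresholds, was rated so. No paired analysis was possible because each KRAB-ZFP has 1 sample, and replicate numbers only name samples. The class itself depended on the k-mer: with 32-mers it held 3187 peaks, of which 1648 (46.4% of the members) were shared, with 20-mers 4109 (2502 shared) and with 24-mers at every position 3537 (3227 shared). With 32-mers the share of chromosome 2 genes exceeded that of chromosome 4 by 0.206 and of chromosome 13 by 2.03 points, and the differences between members and single-copy peaks were -0.0061 in log2 tags, -0.036 in log2 width and 0.366 CpG. With 20-mers F9 exceeded ES cells by 1.59 points, GC differed by -0.500 points, and fold (0.116, adjusted p = 0.0355, sign-flip permutation) and CpG (-0.952, adjusted p = 0.0055) passed the test. With 24-mers at every position GC differed by -0.043. With strict thresholds F9 exceeded ES cells by 0.668 points and width differed by -0.0036. Chromosome 2 exceeded chromosome 13 by 0.598 on the log2 scale and by 2.29 points without the KRAB-ZFP with the highest share. None of the differences in share, in tags, in width or in GC that turned had passed the test before. Against peaks with at least 100 and under 1000 copies, fold differed by -0.027, transcript starts by 1.53 points (adjusted p = 0.0479), introns by 1.61 points, GC by -1.88 points and CpG by -1.43 (adjusted p = 0.0029). The causes were not tested, except that this last alternative exchanges the comparison class. The lower shares at transcript starts and in introns against single-copy peaks, and the own 8-mer excess (14.1 to 25.96 points), kept their direction and side of the threshold in all other alternatives run. Families of at least 10 members numbered 26 at 10% sharing and 27 at 50%, but held 76.5% and 16.5% of the members. The limits are 1 library per KRAB-ZFP, setups that differ in threshold and control, and reads that could not be assigned to 1 copy.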
